A study of Mus musculus with 12 samples.

Results

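The 7 genes described here encode Fc gamma receptors and the first components of their signalling: the receptors Fcgr1, Fcgr2b, Fcgr3 and Fcgr4, the signalling chain Fcer1g, the Fc receptor-like gene Fcrls and the kinase gene Syk. They were taken by symbol from the 40853 symbols of the microglia and astrocyte tables, and all 7 were found in both. RNA had been sequenced from microglia and astrocytes sorted by flow cytometry from whole brains of mice aged 8 to 9 weeks, wild type (WT) or labelled KPNA4 KO, a knockout of the gene Kpna4, which encodes importin α4, a carrier of proteins into the nucleus. Every mouse, WT and KO alike, had been injected into the peritoneum with lipopolysaccharide (LPS, an inflammatory bacterial product) at 1 mg/kg, 20 h before dissection, so no value here is from an unstimulated brain. The 4 groups, WT and KO microglia and WT and KO astrocytes, had 3 libraries each, and 6 animals each gave 1 microglia and 1 astrocyte library. Neither the sorting antibodies nor the kind of Kpna4 allele is named in the labels.

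The libraries held 10.3 M to 14.5 M counts for microglia, while the astrocyte totals were 10.7 M to 15.6 M. The 14 microglia markers summed to 19517 to 26301 CPM (counts per 1000000 counts of the library) in microglia and to 298 to 849 CPM in astrocytes, and none was at 0 in any library. The 12 astrocyte markers summed to 21431 to 28377 CPM in astrocytes and to 450 to 1006 CPM in microglia. Kpna4 itself averaged 84.4 ± 14.8 CPM in the WT and 69.0 ± 9.41 CPM in the KO microglia (SD, n = 3 each; edgeR's adjusted p = 0.778). In astrocytes its averages were 49.6 ± 8.81 and 64.4 ± 18.6 CPM (SD, n = 3 each; edgeR's adjusted p = 0.999). Its RNA level therefore did not separate the genotypes, and KO and WT below mean libraries labelled as such.

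Fc gamma receptors bind the constant part of IgG antibodies and let macrophages, including microglia, take up and respond to antibody-coated material. Fcgr1, Fcgr3 and Fcgr4 are activating receptors that signal through the Fcer1g chain, whose cytoplasmic tail carries an immunoreceptor tyrosine-based activation motif (ITAM). Src family kinases phosphorylate the tyrosines of the ITAM, and the kinase Syk then docks there with its SH2 domains and passes the signal on. Fcgr2b is the inhibitory member: its own tail carries an inhibitory motif (ITIM) that recruits the phosphatase encoded by Inpp5d. Fcrls is related to these receptors by sequence and is widely used as a marker of mouse microglia.

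The coding stretches of both motifs show what sets the activating chain apart from the inhibitory receptor. They were read from the GENCODE vM21 transcripts of build GRCm38, with the tyrosine codons in capitals. The ITAM stretch covers residues 65 to 79 of the 86 residues of Fcer1g, with a pair of tyrosines, and the ITIM stretch covers residues 317 to 322 of the 340 residues of Fcgr2b, with a single tyrosine.
Fcer1g ITAM: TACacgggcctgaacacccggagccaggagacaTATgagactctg
Fcgr2b ITIM: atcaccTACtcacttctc

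Where their coding sequences align, Fcgr2b is close to the activating Fcgr3, which bears on how far their reads can be told apart. Their coding sequences were identical at 83.74% of 787 aligned bases, against 58.74% to 63.34% for the other pairs of the 4 receptors. The longest identical coding run was 129 bases, against at most 14 bases in those other pairs. It is shown here because a read that lies wholly within it cannot be placed in one gene or the other.
Shared run of Fcgr2b and Fcgr3: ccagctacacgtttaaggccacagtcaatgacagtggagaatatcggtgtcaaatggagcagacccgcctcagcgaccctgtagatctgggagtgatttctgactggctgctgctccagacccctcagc

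The sequence before each receptor's start site is shown as a description. The 4 receptor genes shared most of their library order in microglia, described further on, and some microglia markers had that order too. Whether these sequences bear on that order was not tested. Each run is the 120 bases before the RefSeq start site on build GRCm38.p6, and the authors' build was GRCm39. Fcgr3 has a further start site there, whose run is not shown. Capitals mark 2 motifs searched on both strands: GAGGAA (or TTCCTC on the other strand), the core bound by the macrophage factor PU.1, and GAAA followed after any 2 bases by GAAA again, a form of the interferon-stimulated response element.
Fcgr1, chr3:96293970-96294089, minus strand: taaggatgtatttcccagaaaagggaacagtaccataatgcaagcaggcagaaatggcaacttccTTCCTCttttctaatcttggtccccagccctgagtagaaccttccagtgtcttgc
Fcgr3, chr1:171059404-171059523, minus strand: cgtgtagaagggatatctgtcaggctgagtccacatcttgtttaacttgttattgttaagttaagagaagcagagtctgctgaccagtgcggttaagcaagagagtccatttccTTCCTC
Fcgr4, chr1:171018806-171018925, plus strand: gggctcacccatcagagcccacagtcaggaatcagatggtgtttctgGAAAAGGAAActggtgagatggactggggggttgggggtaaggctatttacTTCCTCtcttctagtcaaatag
Fcgr2b, chr1:170976072-170976191, minus strand: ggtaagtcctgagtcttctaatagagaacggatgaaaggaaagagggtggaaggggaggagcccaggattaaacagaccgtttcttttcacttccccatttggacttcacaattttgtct

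In the RefSeq windows from 250 bases before to 50 bases after a start site, the PU.1-type core was found for 5 of the 7 genes, Fcgr1, Fcgr3, Fcgr4, Fcrls and Syk, and for 31.25% of all 27025 genes with such a window. It began 55 bases before the start of Fcgr1, 22 before that of Fcgr4 and, depending on the start site, 6 or 15 before that of Fcgr3. Syk also has more than a single window, and not every window of Syk held the core. The interferon-response letters were found for Fcgr4 alone among the 7 genes, 73 bases before the start, and for 3.99% of all genes. These matches describe letters and not bound sites. Fcgr2b, Fcgr4, Fcgr3 and Fcer1g lie in this order on chromosome 1, Fcrls and Fcgr1 on chromosome 3 and Syk on chromosome 13.

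All 7 genes were higher in microglia than in astrocytes, by 3.08 to 6.13 on the log2 scale, and for each gene every microglia library was above every astrocyte library. This comparison asks in which sorted cell type the receptor system is expressed. By edgeR's quasi-likelihood test with Benjamini-Hochberg adjustment over all genes tested, 7 of 7 passed an adjusted p of 0.05 on the microglia side, where 28.2% of the 17294 genes tested did and 36.4% passed on the astrocyte side. This fit of group means had no term for the animal, although each animal gave a library of both cell types. With the animal as a block, all 7 still passed. Libraries of all microglia above all astrocytes were found for 24.9% of genes, and a fitted log2 value of at least 3 for 7.84%. The median was 5.40 over the 7 genes and -0.19 over all genes tested. In libraries from sorted pools, fewer cells of a type and less RNA per cell cannot be told apart.

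Among the receptors, the high-affinity activating receptor Fcgr1 was at 392, 360 and 516 CPM in WT microglia and at 404, 435 and 613 CPM in KO microglia. The astrocyte libraries had 10.1, 2.93 and 5.81 CPM in WT and 11.2, 4.93 and 10.4 CPM in KO. The cell types were far apart, with a log2 difference of 5.66 (SE 0.29, edgeR's adjusted p = 6.78e-10).

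The activating receptor Fcgr3 was at 382, 452 and 924 CPM in WT microglia and at 734, 870 and 1138 CPM in KO microglia. In astrocytes it was at 15.8, 7.72 and 25.5 CPM in WT and 13.7, 7.45 and 17.3 CPM in KO. The third WT microglia library stood with the KO libraries, while the first and second WT libraries lay below all others. The log2 difference between cell types was 5.40 (SE 0.32, edgeR's adjusted p = 2.35e-09).

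Fcgr4, an activating receptor found on myeloid cells, was the lowest of the 4 receptors in CPM in each microglia library, at 35.7, 58.2 and 98.7 CPM in WT and 96.9, 82.5 and 120 CPM in KO. In astrocytes it had 32, 0 and 22 counts in WT and 0, 0 and 29 counts in KO. The 3 astrocyte libraries at 0 allow up to 3 counts each, which is 0.244 to 0.279 CPM, for counting error only. The log2 difference between cell types was 6.13 (SE 0.69, edgeR's adjusted p = 1.81e-06). With so few astrocyte counts this size is loose: it was 9.33 without the third KO animal, whose astrocyte library held the only KO counts, and 7.34 with limma voom.

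The inhibitory receptor Fcgr2b was at 134, 176 and 268 CPM in WT microglia and at 219, 217 and 315 CPM in KO microglia. Its astrocyte levels were 27.8, 9.92 and 37.7 CPM in WT and 19.7, 18.9 and 15.9 CPM in KO. Its log2 difference between cell types, 3.08 (SE 0.28, edgeR's adjusted p = 1.84e-07), was the lowest of the 7.

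Fcrls was at 818, 678 and 889 CPM in WT microglia and at 579, 722 and 821 CPM in KO microglia. It was at 17.99, 5.53 and 15.1 CPM in WT and 10.03, 6.79 and 13.996 CPM in KO astrocytes. The groups of one cell type overlapped, and the log2 difference between cell types was 5.77 (SE 0.28, edgeR's adjusted p = 4.31e-10).

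Of the signalling components, the ITAM chain Fcer1g was at 273, 429 and 361 CPM in WT microglia and at 493, 339 and 328 CPM in KO microglia. Astrocytes had 32.0, 9.92 and 11.6 CPM in WT and 22.4, 23.0 and 6.36 CPM in KO. Its log2 difference between cell types was 4.08 (SE 0.38, edgeR's adjusted p = 2.41e-07), and neither cell type showed separate genotypes.

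Syk had the narrowest spread in microglia, at 304, 282 and 322 CPM in WT and 288, 289 and 293 CPM in KO. Its levels in astrocytes were 6.12, 4.47 and 13.1 CPM in WT and 17.8, 12.5 and 21.6 CPM in KO. Its log2 difference between cell types was 4.40 (SE 0.23, edgeR's adjusted p = 6.31e-10).

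**Figure D1:**
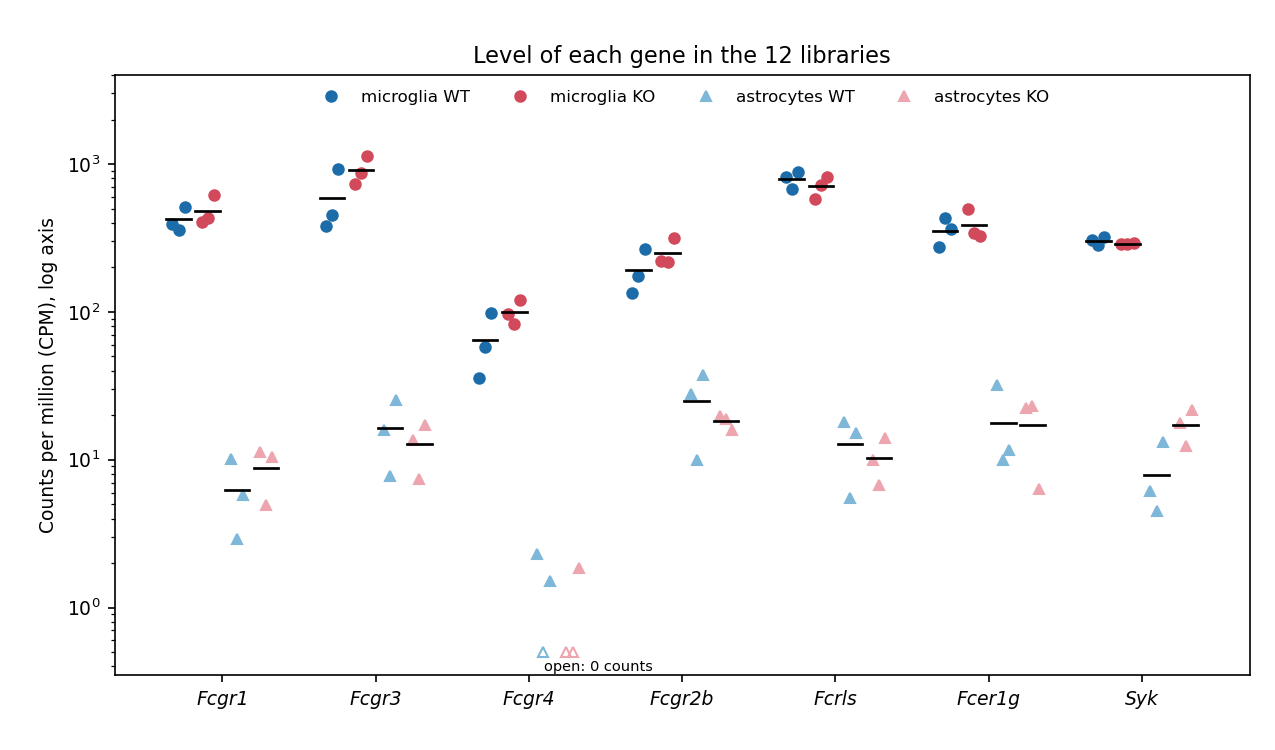
CPM of the 7 genes on a log axis, 1 point per library, for the 4 groups of 3 libraries; the black bars are group means and open triangles at the foot mark 0 counts, which a log axis cannot place. Microglia libraries lie above astrocyte libraries for every gene, with Fcgr4 of microglia between 35.7 and 120 CPM and 3 astrocyte libraries of Fcgr4 at 0.

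Levels of different genes were compared per length, as CPM per kilobase of the longest GENCODE transcript. Over the 6 microglia libraries Fcgr3 was at 557 ± 215 and Fcer1g at 543 ± 115 CPM per kilobase (SD, n = 6 each), and these overlapped. Fcrls followed at 330 ± 49.9 and Fcgr1 at 175 ± 36.6 CPM per kilobase (SD, n = 6 each), each apart from its neighbours in all 6 libraries. Fcgr4 at 65.3 ± 24.3, Fcgr2b at 62.5 ± 18.1 and Syk at 55.3 ± 2.72 CPM per kilobase (SD, n = 6 each) overlapped.

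The lower part of this order depends on the length used, since the transcripts of Fcgr2b run from 1084 to 3544 bases. With the coding length, chosen as an alternative after the values were seen, Fcer1g led at 1329 CPM per kilobase in microglia, before Fcgr3 at 933, Fcrls at 491 and Fcgr1 at 373. Fcgr2b at 217 and Syk at 157 then stood above Fcgr4 at 109 CPM per kilobase. In astrocytes Fcer1g was first by either length, at 25.7 ± 14.4 CPM per kilobase of the longest transcript (SD, n = 6), and neighbours in the order overlapped throughout.

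The astrocyte libraries held a small level of microglia markers, so each gene's astrocyte level was set beside the microglia level of the same animal. Fcgr2b in astrocytes stood at 5.03% to 20.7% of its microglia level over the 6 animals, with a median of 8.84%. The medians were 4.20% for Syk, 3.88% for Fcer1g, 1.79% for Fcgr3, 1.70% for Fcrls, 1.42% for Fcgr1 and 0.762% for Fcgr4. Of the 14 microglia markers, 13 had medians of 1.20% to 2.55%, and Sall1, a transcription factor of microglia, had 9.26%.

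Fcgr2b and Fcer1g were above the median of the 14 markers in 6 of 6 animals, and Syk in 5 of 6. Fcgr2b was above all 14 markers in 2 animals, and Fcer1g and Syk in 1 each. Sall1 was the highest marker in every animal. Above all the other markers, Fcgr2b stood in every animal and Fcer1g and Syk in some. Fcgr4 was below all 14 in 3 animals, and Fcrls and Syk in 1 each. Fcrls was above the marker median in none of the 6 animals, Fcgr1 and Fcgr4 in 1 and Fcgr3 in 2. The astrocyte levels of Fcgr1, Fcgr3 and Fcrls thus lay among or below those of the microglia markers.

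As a percentage of the summed microglia markers of the same library, Fcgr2b was at 3.11% to 6.94% in the 6 astrocyte libraries and at 0.651% to 1.20% in the 6 microglia libraries. Scaled in this way, all 6 astrocyte libraries of Fcgr2b were above the highest microglia library, against 5 of 6 for Syk, 4 of 6 for Fcer1g, 1 of 6 for Fcgr3 and 0 of 6 for Fcgr1, Fcgr4 and Fcrls. This scale was not planned in advance. The 8 markers of border-associated macrophages, which also carry Fc receptors, summed to 11.1 to 31.7 CPM in astrocytes and to 184 to 395 CPM in microglia, and 0 to 4 of them were at 0 in an astrocyte library. The 9 endothelial and mural markers summed to 333 to 427 CPM in astrocytes and to 21.9 to 85.2 CPM in microglia, with none at 0 in astrocytes. The 6 monocyte markers summed to 9.77 to 32.7 CPM in astrocytes, with 1 to 5 at 0, and 8 to 10 of the 10 markers of B, T and NK cells were at 0 in each library. The part of these cells in the Fcgr2b level of astrocytes was not tested.

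**Figure D2:**
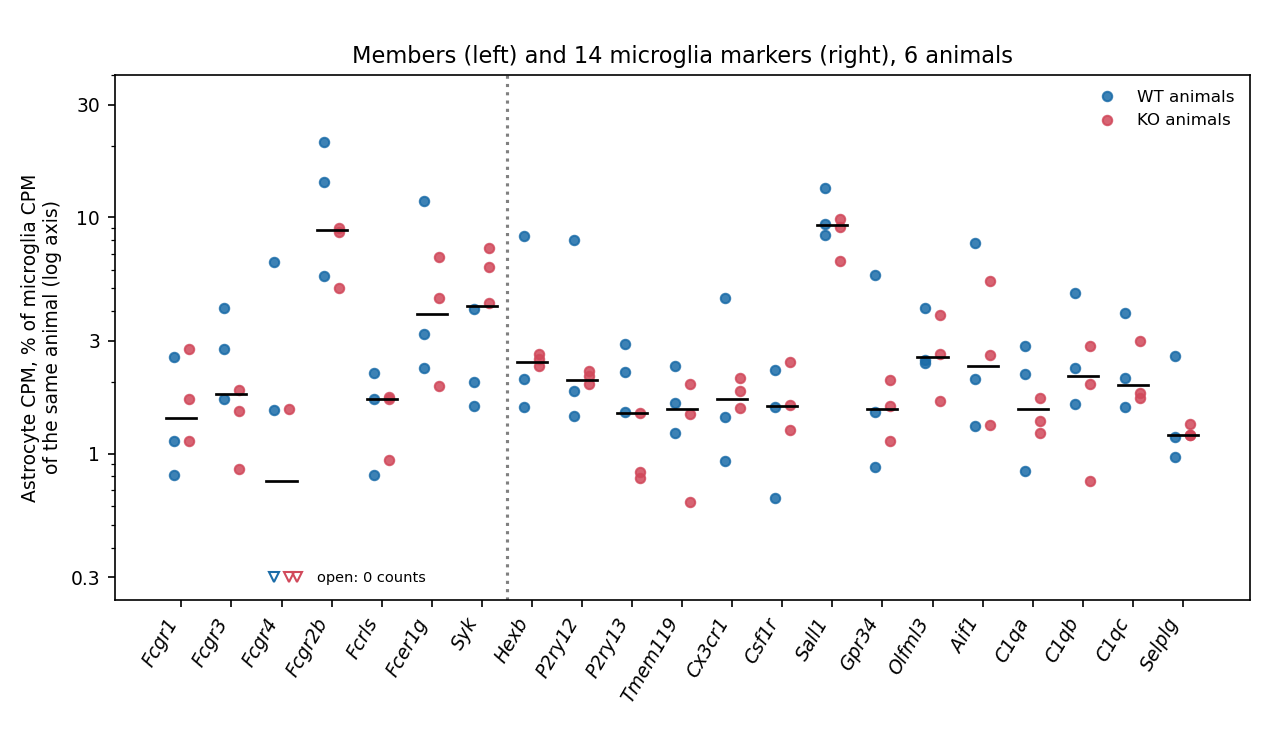
Astrocyte CPM as a percentage of the microglia CPM of the same animal, on a log axis, for the 7 genes (left of the dotted line) and 14 microglia markers (right), 1 point per animal with the median as a bar; open triangles mark 0 counts in astrocytes. Fcgr2b, with a median of 8.84%, stands at the level of Sall1 and above the other 13 markers' medians, while Fcgr1, Fcgr3 and Fcrls lie among the markers.

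The balance of the inhibitory Fcgr2b and the activating Fcgr3 differed between the cell types. Fcgr2b made 26.0%, 28.0% and 22.5% of the counts of the pair in WT microglia and 23.0%, 20.0% and 21.7% in KO microglia. In astrocytes it made 63.8%, 56.2% and 59.6% in WT and 59.0%, 71.7% and 47.9% in KO. No astrocyte library overlapped the microglia range.

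The log2 ratio of Fcgr2b over Fcgr3 was higher in astrocytes than in microglia of the same animal in 6 of 6 animals, by 2.29 ± 0.59 (SD, n = 6), with an exact sign-flip permutation test giving p = 0.03125, the smallest possible with 6 animals. This comparison was chosen after the values were seen. In microglia the ratio was -1.55 ± 0.22 in WT and -1.86 ± 0.13 in KO (SD, n = 3 each), a difference of -0.31 with overlapping groups and p = 0.2 by a 2-sided exact permutation test. In astrocytes it was 0.58 ± 0.23 in WT and 0.58 ± 0.73 in KO (SD, n = 3 each), with exact p = 1.0, and the smallest p that 3 against 3 libraries allow is 0.1.

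The split between both genes is itself an estimate in microglia. Their estimated counts were not whole numbers in 6 of 6 microglia libraries, for example 1782.36 for Fcgr2b and 5067.64 for Fcgr3 in the first WT library, while the sum of the pair, 6850 there, was whole in 6 of 6. In astrocytes both values were whole in every library, and the other 5 genes were whole in all 12. Summed into 1 row, a choice made after the values were seen, the pair differed between microglia and astrocytes by 4.46 on the log2 scale (SE 0.30, edgeR's adjusted p = 7.25e-09).

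**Figure D3:**
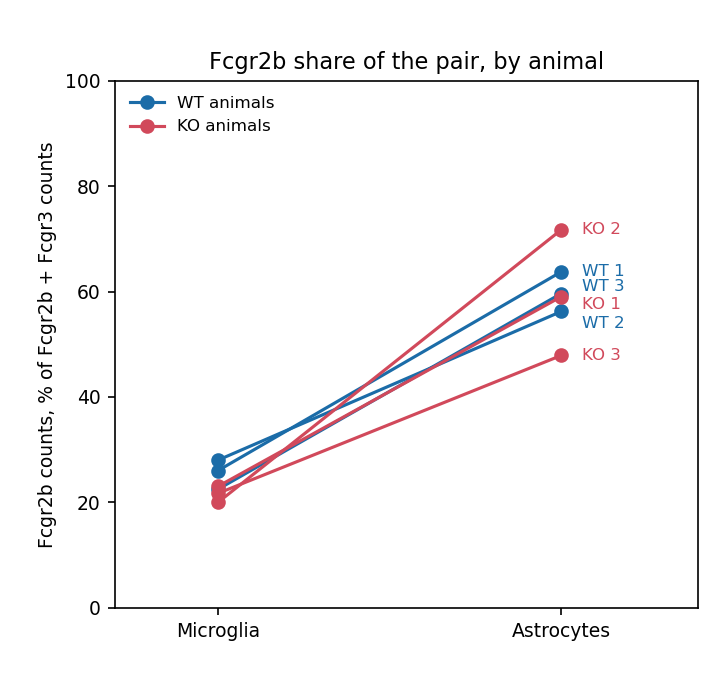
Fcgr2b as a percentage of the summed Fcgr2b and Fcgr3 counts (linear axis from 0 to 100) in the microglia and the astrocyte library of each of 6 animals, joined by a line and labelled by genotype and replicate. The share is 20.0% to 28.0% in microglia and 47.9% to 71.7% in astrocytes.

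Between KO and WT microglia none of the 7 genes passed the test after adjustment. The comparison asks how receptor levels after LPS differ between libraries labelled KO and WT, and with every mouse injected it holds no measure of the response to LPS itself. The fitted log2 differences were 0.63 (SE 0.28) for Fcgr3, 0.62 (SE 0.29) for Fcgr4, 0.36 (SE 0.24) for Fcgr2b and 0.17 (SE 0.21) for Fcgr1, all 4 receptors with the higher mean in KO. They were 0.11 (SE 0.22) for Fcer1g, -0.09 (SE 0.17) for Syk and -0.19 (SE 0.20) for Fcrls. The adjusted p of edgeR ran from 0.661 for Fcgr3 to 0.939 for Fcer1g, and 0% of the 14191 genes tested were called.

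At an unadjusted edgeR p under 0.05 stood 1 of the 7 genes, Fcgr3, where 7.42% of all genes did, and Fcgr4 was next. DESeq2 and limma voom had 2 of the 7 at an unadjusted p under 0.05 and called none. KO and WT microglia overlapped for each of the 7 genes, so 0 of 7 separated, where 13.1% of all genes did. The median over the 7 genes was 0.17, and over all genes tested -0.00129.

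The 4 receptors had much the same order of libraries in microglia. For each, the first and second WT libraries were lowest, the third KO library was highest and the third WT library second highest, and KO was above WT in 7 of the 9 pairs of libraries. Fcgr3 in the third WT library, at 924 CPM, was above the first and second KO libraries at 734 and 870 CPM. Fcer1g and Syk did not have this order: the highest Fcer1g level, 493 CPM, was in the first KO library, and the highest Syk level, 322 CPM, in the third WT library. The order was not particular to the receptors, since the microglia markers Cx3cr1, P2ry13 and C1qa had it too. Cx3cr1, for example, was at 2222, 2565 and 3419 CPM in WT and at 2885, 2972 and 3794 CPM in KO microglia. Other markers, such as Csf1r and Sall1, did not have it.

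The size of the receptor differences moved with the third WT library. Without it the log2 difference was 1.09 for Fcgr3 (edgeR's adjusted p = 0.348), 1.05 for Fcgr4 (adjusted p = 0.404) and 0.65 for Fcgr2b (adjusted p = 0.460). Without the first WT library it was 0.40, 0.33 and 0.16 for the same genes. The third WT library had the highest summed oligodendrocyte lineage markers of the microglia libraries, 1697 CPM against 256 to 723 CPM in the others, and the highest choroid plexus and ependymal markers, 2129 CPM against 344 to 1059 CPM. The third libraries of WT and KO had the highest microglia marker sums, 24389 and 26301 CPM. The border-associated macrophage markers were lowest in the first WT library, 184 CPM, and highest in the third, 395 CPM, and the part of these cells in the receptor levels was not tested.

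Markers of several other cell types, astrocytes and endothelium among them, were lower on average in KO than in WT microglia libraries. The 12 astrocyte markers summed to 766, 486 and 1006 CPM in WT and to 450, 491 and 496 CPM in KO. All 12 had a fitted value below 0, with a median of -0.61. At an unadjusted edgeR p under 0.05 stood 5 of the 12, where 7.42% of all genes did. All 8 tested endothelial and mural markers were also below 0, with a median of -1.44 and sums of 26.3 to 85.2 CPM in WT and 21.9 to 35.5 CPM in KO. The sums of the WT and KO libraries overlapped for both lists, edgeR called no marker of either, and the 14 microglia markers had a median of 0.15 with 11 above 0. Below 0 were also 4 of 5 choroid plexus and ependymal, 6 of 8 oligodendrocyte lineage, 6 of 8 neuron and 3 of 3 monocyte markers tested. The border-associated macrophage markers went the other way, with 6 of 8 above 0, and 2 of 4 neutrophil markers were above 0. The part of this shift in the receptor differences was not tested.

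Taken as 1 row, Fcgr2b and Fcgr3 differed between KO and WT microglia by 0.57 on the log2 scale (SE 0.27, edgeR's adjusted p = 0.688). The division of shared reads between both genes therefore does not enter that value.

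In astrocytes the genotype difference was also not past the adjusted threshold for any of the 7 genes, with an adjusted edgeR p of 0.999 for each and 0% of the 15755 genes tested called. Syk had the lowest unadjusted p: it averaged 7.90 ± 4.60 CPM over the WT libraries and 17.3 ± 4.60 CPM over those labelled KO (SD, n = 3 each), a log2 difference of 1.25 (SE 0.43). It was higher in KO in 8 of the 9 pairs of libraries, the exception being the third WT library at 13.1 CPM against the second KO library at 12.5 CPM. An unadjusted p under 0.05 was found for 1 of the 7 genes by edgeR, by DESeq2 and by limma voom, Syk each time, and for 2.37% of all genes by edgeR.

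For the receptors the astrocyte differences were 0.58 (SE 0.55) for Fcgr1, -0.24 (SE 0.43) for Fcgr3, -0.94 (SE 1.92) for Fcgr4 and -0.31 (SE 0.41) for Fcgr2b on the log2 scale. They were 0.10 (SE 0.56) for Fcer1g and -0.22 (SE 0.46) for Fcrls. Each SE is as large as the value or nearly so, except for Syk. Again 0 of the 7 genes had genotypes that did not overlap, where 8.13% of all genes did.

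Set against the microglia markers of the same library, Syk was at 0.720%, 1.502% and 2.42% of their sum in WT astrocytes and at 3.46%, 2.73% and 4.24% in KO astrocytes. This scale was not planned in advance. The groups did not overlap on it, the log2 difference was 1.31, and a 2-sided exact permutation test gave p = 0.1, the smallest possible. On the CPM scale itself the groups overlapped. Of all genes tested in astrocytes 3.25% did not overlap on the marker-divided scale. The other genes overlapped there: the same exact permutation test gave p = 0.2 for Fcgr1, with a log2 difference of 0.65, and p = 0.7 to 1.0 for Fcgr2b, Fcgr3, Fcer1g and Fcrls, while Fcgr4 had libraries at 0 and was not tested. In microglia the same percentage ran from 1.11% to 1.47%. The microglia markers summed to 849, 298 and 543 CPM in WT and to 513, 457 and 511 CPM in KO astrocytes. The monocyte markers summed to 31.1 to 32.7 CPM in WT and to 9.77 to 27.7 CPM in KO astrocytes. The part of either cell type in the Syk difference was not tested.

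**Figure D4:**
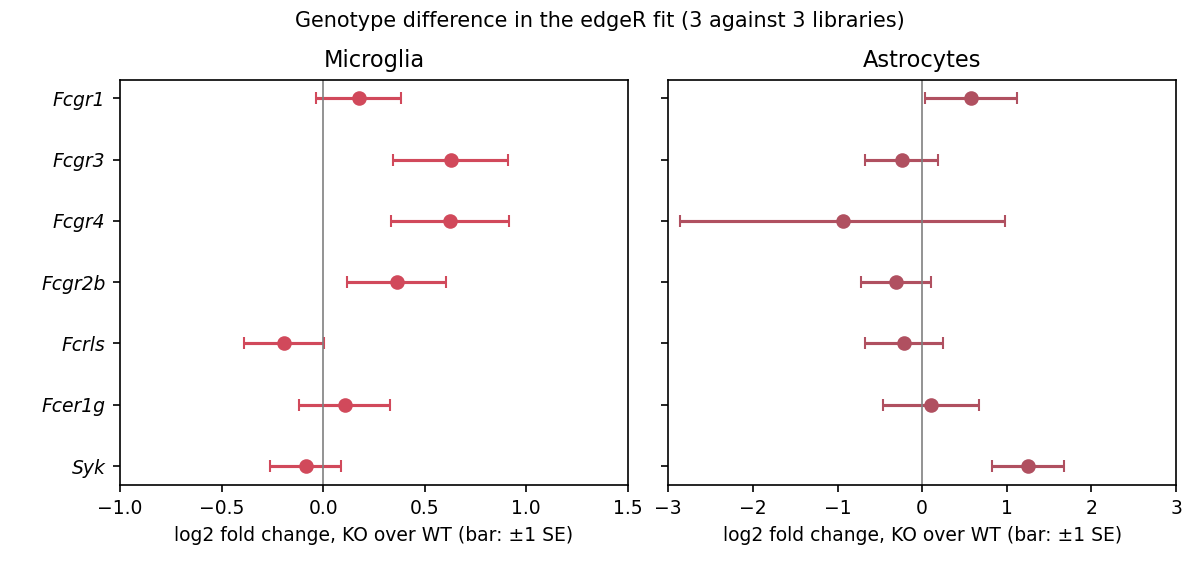
Fitted log2 fold change of KO over WT with 1 SE either side for the 7 genes, in microglia (left) and in astrocytes (right, with a wider axis), from edgeR fits of 3 against 3 libraries. The 4 receptors lie between 0.17 and 0.63 in microglia, Syk lies at -0.09 in microglia and at 1.25 in astrocytes, and no gene passed the adjusted threshold.

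The difference between both genotype effects was tested in 1 fit of all 12 libraries, again with no term for the animal. With the animal as a block 0 genes were called. For Syk the effect in astrocytes exceeded that in microglia by 1.43 on the log2 scale (SE 0.40, edgeR's adjusted p = 0.450), where the median over all genes was 0.16. Syk was the single gene of the 7 under an unadjusted p of 0.05 with edgeR, DESeq2 and limma voom alike, which 6.37% of all genes were with edgeR, and 0% of the 17294 genes tested were called. Fcgr3 went the other way at -0.78, and the summed Fcgr2b and Fcgr3 row at -0.76 (SE 0.52, edgeR's adjusted p = 0.900). The remaining values were 0.50 (SE 0.49) for Fcgr1, -0.58 (SE 0.52) for Fcgr2b, -1.34 (SE 1.24) for Fcgr4, 0.09 (SE 0.67) for Fcer1g and 0.07 (SE 0.47) for Fcrls. Single animals move them: Fcgr1 was 0.09 without the first KO animal and 1.03 without the first WT animal, Fcgr2b was -0.32 without the first and -1.10 without the second WT animal, and Fcgr4 was -0.34 without the first WT animal and -7.50 without the third KO animal.

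Genes with the profile most like that of Fcer1g or Syk were sought among 7404 genes with a mean of at least 20 CPM, by the root mean square difference of log2(CPM + 1) values centred on each gene's mean, over 12 libraries. For Fcer1g they were Rgs10 at 0.29, Klhl6 and Aif1 at 0.34, Mef2c at 0.37 and Baz1a at 0.39. Aif1 is the gene of the microglia antigen IBA1, and Mef2c encodes a transcription factor. For Syk they were Gm46162 at 0.32, Adgre1, the gene of the macrophage antigen F4/80, at 0.39, Trim14 at 0.42, Lrrc25 at 0.43 and Man2b1 at 0.44. Fcer1g and Syk differed from each other by 0.86, and no other of the 7 genes ranked among the nearest 100 of either; Fcgr1 came closest, in rank 254 for Syk.

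The rest of the pathway was followed in 5 lists. Between the cell types, edgeR called 13 of 16 tested ITAM adaptors and receptors, 7 of 10 Src family kinases and controllers, 22 of 25 Syk family and downstream genes, 25 of 30 inhibitory receptors and phosphatases, and 3 of 4 other Fc receptors as higher in microglia, against 28.2% of all genes. Their medians were 4.95, 3.37, 4.08, 4.24 and 2.34 on the log2 scale, against -0.19 over all genes. Lower in microglia were 3 Src kinase genes, 1 downstream gene and 2 inhibitory genes. The counts and medians include genes that passed the filter on low counts through the microglia groups only, which fixes their direction. In the fit of the astrocyte libraries alone, the filter kept 6 ITAM genes, 10 Src kinases and controllers and 24 Syk family and downstream genes. It kept 21 inhibitory genes and 2 other Fc receptors there, and all 7 members.

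Among the adaptors, Tyrobp, the other main ITAM chain of microglia, was higher in microglia by 4.94 (SE 0.31). Siglech, a receptor that signals through Tyrobp, was at 352 to 387 CPM in microglia and higher there by 5.65 (SE 0.48). Trem2, a lipid-sensing receptor of the same kind, was at 112 to 198 CPM in microglia and higher by 5.53 (SE 0.58). Each passed edgeR's adjusted threshold.

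Of the Src family, Lyn was at 576 to 837 CPM in microglia and higher there by 4.10 (SE 0.20). Pag1, the membrane adaptor that brings the inhibitory kinase Csk to Src kinases, was at 1222 to 1826 CPM and higher by 3.69 (SE 0.19). Fyn and Src were on the astrocyte side, by -2.62 (SE 0.22) and -1.37 (SE 0.24). Downstream of Syk, the adaptor Pik3ap1 and the exchange factor Vav1 were higher in microglia by 5.22 (SE 0.41) and 5.15 (SE 0.38), and Vav3, a relative of Vav1, was lower by -2.83 (SE 0.26).

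Inpp5d, the phosphatase that Fcgr2b recruits, was at 697 to 877 CPM in microglia and higher there by 5.39 (SE 0.21). Sirpa, the inhibitory receptor that reads the CD47 signal, was at 854 to 1052 CPM in microglia and higher by 1.62 (SE 0.13). The phosphatase genes Ptpn11 and Inppl1 were on the astrocyte side, by -0.68 (SE 0.16) and -0.42 (SE 0.17). Of the other Fc receptors, the IgG carrier Fcgrt and the cytosolic antibody receptor Trim21 were higher in microglia by 1.48 (SE 0.22) and 1.18 (SE 0.20).

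**Figure D5:**
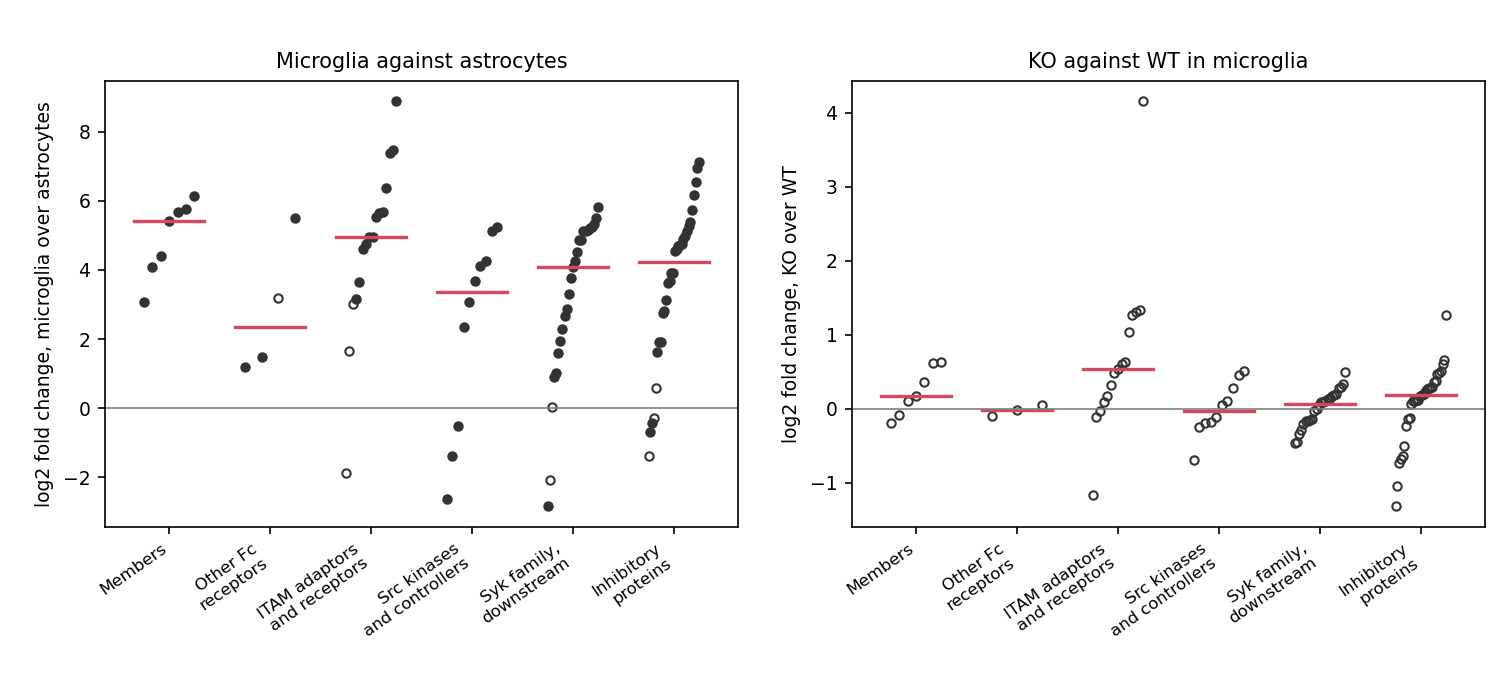
Fitted log2 fold change of each tested gene of the 7 members and 5 pathway lists, for microglia over astrocytes (left) and for KO over WT in microglia (right), with list medians as red bars; filled points passed edgeR's adjusted p of 0.05 and open points did not. The list medians on the left run from 2.34 to 5.40, and every point on the right is open. Points on the left include genes that passed the filter on low counts through microglia only.

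Between KO and WT microglia edgeR called none of the genes on the 5 lists, against 0% of all genes. Some genes passed the filter on low counts through 1 genotype only, which fixes their direction: Cd300lb, Clec4n, Hcst and Trem3 among the 15 tested ITAM adaptors and receptors, and 3 of the 30 inhibitory genes. Of the 10 ITAM genes that passed in both genotypes, 9 had a fitted value above 0, with a median of 0.51, and 3 were at an unadjusted p under 0.05, all higher in KO. Of the 27 such inhibitory genes, 18 were above 0, with a median of 0.18, and 8 were at an unadjusted p under 0.05, 4 higher and 4 lower. These shares, 30% and 29.6%, stand beside 7.91% of the 11603 such genes in all, whose median was 0.02. The medians were 0.07 for the 24 Syk family and downstream genes, with 14 above 0, -0.03 for the 10 Src kinases, with 5, and -0.01 for the 3 other Fc receptors, with 1, and none of these was at an unadjusted p under 0.05. In astrocytes no list gene had an unadjusted edgeR p under 0.05, and the medians ran from -0.53 for 6 ITAM genes to 0.18 for 10 Src kinases.

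Genes of these lists whose KO and WT microglia did not overlap numbered 8 of 30 for the inhibitory genes, 4 in each direction, 3 of 15 for the ITAM genes, 4 of 24 for the Syk family and downstream genes and 2 of 10 for the Src kinases, where 13.1% of all genes did not overlap. These counts include genes that passed the filter through 1 genotype only, as did 1424 of the 14191 genes tested. Trem3, among the 3 ITAM genes, is such a gene, so its separation is no result. The genes described next were chosen for the smallest p of this contrast, so their separation follows from the choice and is given as a description. The inhibitory receptor gene Cd300lf was at 17.3, 31.5 and 24.4 CPM in WT microglia and at 75.2, 49.2 and 53.9 CPM in KO microglia, with no overlap. Its log2 difference was 1.27 (SE 0.26, edgeR's adjusted p = 0.394). Cd72, an ITIM receptor best known from B cells, was at 31.8, 34.9 and 42.4 CPM in WT and at 18.4, 14.5 and 20.7 CPM in KO, also with no overlap and in the opposite direction, by -1.05 (SE 0.25, edgeR's adjusted p = 0.439). DESeq2 called both genes and limma voom neither.

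The fungal glucan receptor Clec7a, which signals through Syk, was at 8.90, 5.74 and 16.3 CPM in WT and at 20.5, 17.9 and 26.0 CPM in KO microglia. The log2 difference was 1.04 (SE 0.37, edgeR's adjusted p = 0.587). Trem1, an amplifying receptor of myeloid cells, was at 2.34 to 4.18 CPM in WT and 5.52 to 12.98 CPM in KO microglia and at 0 in every astrocyte library, with edgeR's adjusted p = 0.625 between genotypes. The inhibitory receptor gene Pirb was at 37.02, 56.2 and 63.3 CPM in WT and 84.98, 73.6 and 82.3 CPM in KO microglia, with a log2 difference of 0.61 (SE 0.22, edgeR's adjusted p = 0.587). Trem3 had at most 0.0897 CPM in WT and 1.16 to 2.27 CPM in KO microglia, so its fitted value rests on few counts.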

How the data were processed

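The deposited values are estimated counts, listed by gene symbol in 1 table per cell type, with the column endings of RSEM's gene output, and the submitters' processing notes name STAR 2.7.10b, RSEM 1.3.3, limma and GRCm39 without their order or the annotation. Per the labels' protocols, full-length cDNA was amplified with a SMART-Seq HT kit, without molecular identifiers, so counts include amplified copies, and intervals and floors cover counting error only. All 12 columns were matched to a library by name. The authors' expected counts were rounded before testing, and CPM were computed from the library total. Tests used edgeR 4.0.16 in R 4.3.3 (quasi-likelihood, TMM factors, filterByExpr with a minimum count of 10, Benjamini-Hochberg over all genes tested, called at an adjusted p under 0.05), within each cell type or over all 12 libraries; the scripts were tested on simulated data. The SE is the fitted value divided by the square root of F. The ratio of Fcgr2b and Fcgr3 used counts plus 0.5.

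The genes and lists were chosen with earlier results of these data known. Named from each pathway list were up to 3 genes with the smallest unadjusted p under 0.05 for KO against WT per cell type, the 2 highest in microglia and up to 2 called most strongly to the astrocyte side; Tyrobp was named after its values were seen. The labels' animal numbers link 1 library of each cell type to an animal, and their deviations from the group means correlated at 0.04, 0.19 and 0.22 in WT and 0.13, -0.02 and 0.21 in KO animals over 12007 genes. Alternatives were DESeq2 1.42.0, limma 3.58.1 voom, DESeq2 size factors, other filters, 8 abundant non-coding RNAs left out, each replicate left out, blocks and 1 fit of all libraries. Proteins were not printed, and coordinates are those of the GRCm38.p6 RefSeq table.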

Additional observations from a re-analysis of the deposited data

How the results depend on the processing

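Of 391 alternatives of the 28 results on the 7 genes, 368 kept the direction and the side of the threshold and 23 reversed in sign; none of the reversed values passed the threshold. The number of genes called between KO and WT microglia, 0 with edgeR, was 41 with DESeq2, 121 with no filter on low counts, 30 with the replicate block, 41 with all 12 libraries in 1 fit and 0 to 2 with a replicate left out. In astrocytes it was 0, and 4 with DESeq2, 17 with no filter and 0 to 1 with a replicate left out. For the difference between the effects it was 0, and 54 with DESeq2, 160 with no filter and 0 to 6 with a replicate left out. Between cell types it was 11166, and 10266 to 10958 with a replicate left out. It was 11521 with DESeq2, 12019 with limma voom, 9646 with a minimum count of 50 and 10400 with the animal as a block. None of the 7 genes was among those called between genotypes by DESeq2. With limma voom Fcer1g became -0.28 in astrocytes and -0.26 for the difference between effects. That difference was also -0.10 with no filter and -0.0852 with the abundant RNAs left out, and for Fcrls it was -0.0852 and -0.0819 under the same settings. With a pseudocount of 2 the ratio of Fcgr2b over Fcgr3 in astrocytes differed by -0.00082. With a replicate left out the ranges that crossed 0 were, in microglia, -0.00816 to 0.33 for Fcgr1 and -0.10 to 0.27 for Fcer1g. In astrocytes they were -0.67 to 0.0386 for Fcgr2b, -0.56 to 0.16 for Fcgr3, -0.34 to 0.85 for Fcer1g, -0.56 to 0.13 for Fcrls and -0.38 to 0.35 for the ratio. For the difference between effects they were -0.57 to 0.94 for Fcer1g and -0.35 to 0.33 for Fcrls. The microglia ratio ran from -0.43 to -0.22. The value of Syk in astrocytes ran from 1.00 to 1.76, with an adjusted p of at least 0.817 throughout. The labels do not pair a WT with a KO animal, and same-number deviations had correlations of 0.07, 0.03 and 0.41 for microglia and of -0.03, 0.05 and 0.46 for astrocytes. With the replicate block Fcgr3 in microglia was 0.71 (edgeR's adjusted p = 0.223), and the microglia ratio was -0.31. Fcgr4 in astrocytes was not tested at a minimum count of 50, and without the third KO library its value of -6.95 depends on the prior count. The causes of these changes were not tested.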
